A study of Homo sapiens with 17 samples.

Results

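LNCaP cells depleted of CREB1 were set directly against LNCaP cells depleted of FOXA1. The members are the count columns that the labels name LNCaP siCREB1 and LNCaP siFOXA1, 2 libraries each, so that the contrast uses 4 of the 12 RNA libraries and 2 of the 17 samples of the series. No control library enters the difference, and all 15550 genes that passed a filter on low counts were tested, of 23230 in the tables. LNCaP is an established human prostate cancer line of luminal type, labelled as depending on androgen and used at passages 32 to 34. The cells were exposed for 3 days to an siRNA against CREB1 or against FOXA1, at 40 nM. Their medium then held 5% serum stripped with charcoal and so poor in steroid hormones. A group given siControl under the same conditions is shown beside them for its levels and, for the p53 list, as a comparator. The same siCREB1 and siFOXA1 pair exists in LNCaP-abl (abl below), a subline that grows without androgen, used at passages 62 to 64. The labels do not say whether the 2 libraries of a group came from separate cultures, or how many siRNAs were aimed at each gene. The p-values therefore measure the spread between libraries, which may be technical.

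CREB1 is a leucine zipper transcription factor that binds cyclic AMP response elements and is activated when protein kinase A phosphorylates it. FOXA1 is a pioneer factor that binds compacted chromatin and, in prostate epithelium, opens sites used in the androgen response. Because each knockdown serves as the other's comparator, a gene that is higher under siCREB1 may equally be described as lower under siFOXA1. The level in siControl cells shows on which side of the pair a gene departed from it.

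Assigned reads numbered 25700956 and 26428435 in the siCREB1 libraries, against 22655155 and 25219041 in the siFOXA1 libraries. The 2 siControl libraries of LNCaP held 27555950 and 15200856. Levels below are CPM, a gene's reads scaled to the assigned reads of the library, after TMM scaling, a method that corrects for differences in library composition. They are not divided by gene length, so they are compared between libraries and not between genes. Differences are log2 fold changes, siCREB1 minus siFOXA1, with their standard error (SE), from a single edgeR quasi-likelihood fit of all 12 libraries, and a gene is called at a Benjamini-Hochberg adjusted p below 0.05.

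The targeted genes followed their labels. CREB1 stood at 38.7 and 29.8 CPM in the siCREB1 libraries, 61.4 and 60.7 CPM in the siFOXA1 libraries and 81.0 and 85.3 CPM in the siControl libraries. It was thus lowest under its own siRNA and also below siControl under siFOXA1, and the direct difference was -0.83 ± 0.10 (SE; edgeR adjusted p = 8.66e-06). FOXA1 stood at 655 and 658 CPM under siCREB1, at 215 and 211 CPM under siFOXA1 and at 799 and 695 CPM under siControl, a difference of 1.62 ± 0.09 (SE; edgeR adjusted p = 5.93e-09).

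The knockdowns left different transcriptomes. Of the 15550 genes tested, 6691 (43%) were called, 3200 (20.6%) higher and 3491 (22.5%) lower under siCREB1 than under siFOXA1. A difference of at least 1 on the log2 scale was found for 730 genes higher (4.69%) and 884 lower (5.68%). The median over all tested genes was -0.01. The libraries of the 2 groups did not overlap for 73.4% of the tested genes, so that lack of overlap alone says little here. In these bulk libraries, fewer cells of a kind and less RNA per cell cannot be told apart.

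**Figure D1:**
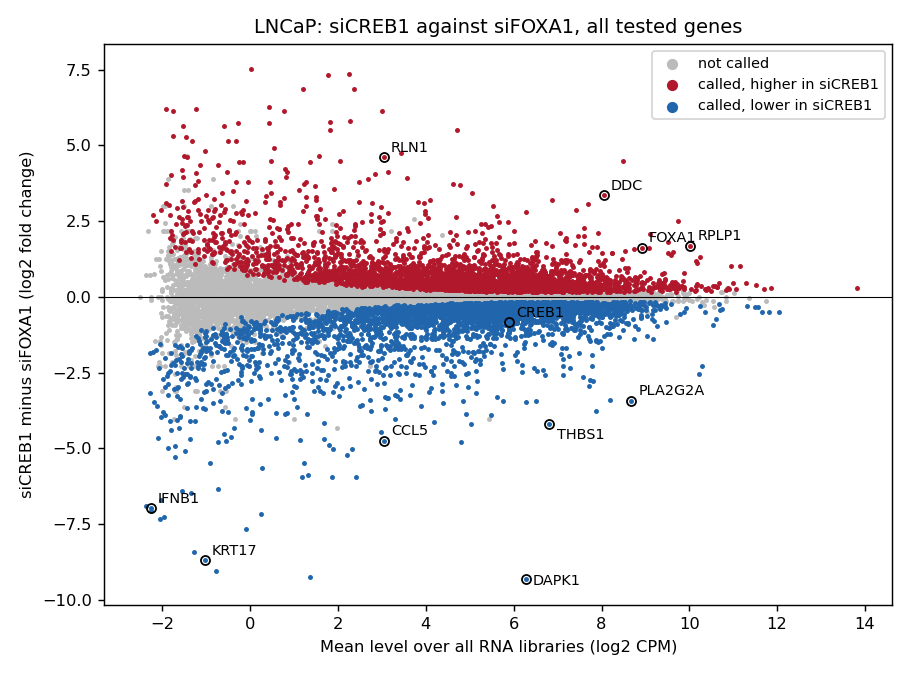
Log2 fold change (siCREB1 minus siFOXA1, LNCaP) against mean level over all RNA libraries (log2 CPM) for the 15550 tested genes. Red points are the 3200 genes called higher under siCREB1, blue the 3491 called lower and grey the rest. Rings mark some of the genes named in the text; fitted values of genes with no count in one group, such as IFNB1 and KRT17, depend on the fit's prior count.

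Among the larger differences, siControl mostly lay with siCREB1. Of the 730 genes at least 1 log2 unit higher under siCREB1, the siControl mean was nearer to siCREB1 than to siFOXA1 in 636 (87.1%). In 279 of the 730 (38.2%) it lay above both knockdowns, and in 10 below both. Of the 884 genes at least 1 log2 unit lower under siCREB1, it was nearer to siCREB1 in 621 (70.2%). In 334 of the 884 (37.8%) it lay below both knockdowns, and in 124 (14%) above both. Over all called genes, it was nearer to siCREB1 in 70.5% of those higher and in 61% of those lower under siCREB1. Distance was taken on the log2 scale.

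The 10 largest differences in each direction were taken among called genes with a mean of at least 3 on the log2 CPM scale over all 12 libraries, and some of them are not reported here. Genes higher under siCREB1 included secreted hormones, a metabolic enzyme and a phosphatase. DDC, the decarboxylase that makes dopamine and serotonin, had 284 and 299 CPM under siCREB1, 25.2 and 31.8 CPM under siFOXA1 and 430 and 492 CPM under siControl (3.35 ± 0.10 SE; edgeR adjusted p = 3.40e-11). The siFOXA1 libraries stood lowest and siControl highest.

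The neighbouring relaxin genes RLN1 and RLN2, hormones made in the prostate, also separated the knockdowns. RLN1 had 15.5 and 19 CPM under siCREB1, 0.548 and 0.841 CPM under siFOXA1 and 22.4 and 20.1 CPM under siControl (4.61 ± 0.21 SE; edgeR adjusted p = 1.41e-09). RLN2 had 14.8 and 14.9 CPM under siCREB1, 0.717 and 0.956 CPM under siFOXA1 and 16.6 and 14.3 CPM under siControl (4.13 ± 0.19 SE; edgeR adjusted p = 1.95e-09). The pair are near-identical copies, so how the counting split reads between them is uncertain.

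TGM3, a transglutaminase, had 30.7 and 34.2 CPM under siCREB1, 1.39 and 3.44 CPM under siFOXA1 and 30.8 and 34 CPM under siControl (3.72 ± 0.25 SE; edgeR adjusted p = 6.76e-08). PTPRR, a tyrosine phosphatase acting on MAP kinases, had 37.2 and 30.4 CPM under siCREB1, 2.74 and 3.44 CPM under siFOXA1 and 42.1 and 40.9 CPM under siControl (3.44 ± 0.15 SE; edgeR adjusted p = 1.03e-09). In both genes the siFOXA1 libraries alone stood low. LRRC31 differed by 3.93 ± 0.23 and LOC145837, an uncharacterised transcript, by 4.75 ± 0.29 (SE). DAB1, an adaptor of the reelin pathway, had 163 reads under siCREB1 and 3 under siFOXA1. Its ratio was 49.7, with an exact 95% counting interval of 16.7 to 243, which covers counting error only.

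Genes lower under siCREB1 were led by DAPK1, a calcium/calmodulin-dependent kinase linked to cell death. DAPK1 had 0.515 and 0.584 CPM in siCREB1 libraries, 364 and 345 CPM in siFOXA1 libraries and 0.903 and 1.02 CPM in siControl libraries (-9.32 ± 0.16 SE; edgeR adjusted p = 2.17e-13). THBS1, a secreted matrix glycoprotein that inhibits vessel growth, had 32.9 and 30.3 CPM under siCREB1, 672 and 488 CPM under siFOXA1 and 28.8 and 24.9 CPM under siControl (-4.20 ± 0.15 SE; edgeR adjusted p = 1.50e-10). PLD1, a phospholipase that makes phosphatidic acid, had 7.55 and 9.85 CPM under siCREB1, 120 and 135 CPM under siFOXA1 and 8.34 and 6.66 CPM under siControl (-3.87 ± 0.12 SE; edgeR adjusted p = 7.04e-11). In these 3 genes siCREB1 and siControl lay close together and the siFOXA1 libraries alone stood high.

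POLR3G, a subunit of RNA polymerase III, had 4.64 and 3.98 CPM under siCREB1, 81.0 and 75.6 CPM under siFOXA1 and 3.29 and 3.78 CPM under siControl, a difference of -4.18 ± 0.12. GAB3, a scaffold protein of growth factor receptors, had 4.27 and 2.99 CPM under siCREB1, 63.7 and 64.4 CPM under siFOXA1 and 1.34 and 1.15 CPM under siControl, a difference of -4.14 ± 0.15. CCDC80, a secreted matrix protein, differed by -3.78 ± 0.18 and HOXA11-AS1 by -3.90 ± 0.21 (SE). The library kit keeps no strand, so reads of HOXA11-AS1 and of its antisense partner cannot be told apart.

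Of the 20 genes, 5 had a mean below 3 on the log2 CPM scale over the LNCaP libraries and entered through their level in abl, namely DAB1, LRRC31, CCDC80, DENND2D and LRRTM1. DENND2D and LRRTM1 were at the limit of detection in LNCaP. DENND2D had 0 reads under siCREB1 and 7 under siFOXA1, which makes it at least 2.55-fold lower when 3 reads over the group are taken as the floor. LRRTM1 had 1 read under siCREB1 and 19 under siFOXA1, a ratio of 20.8 with an exact 95% counting interval of 3.31 to 864. Without the first siFOXA1 library, LRRTM1 was no longer called (-3.31; edgeR adjusted p = 0.057).

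**Figure D2:**
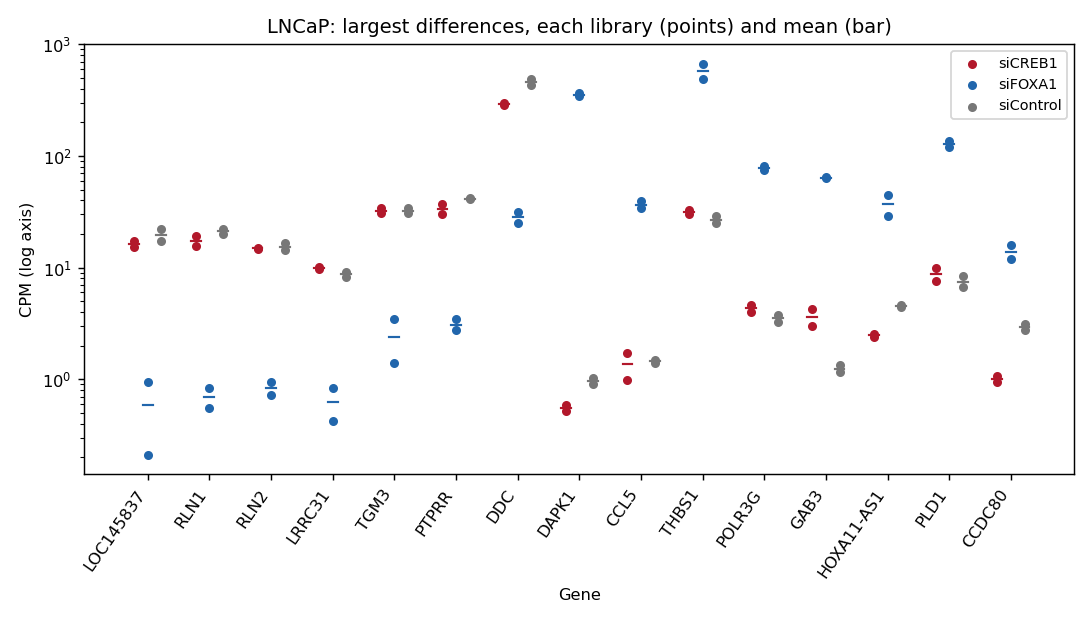
CPM (log axis) in each LNCaP library for 15 of the 20 genes with the largest differences, with points for libraries and a bar for the group mean. The siCREB1 and siControl points lie close together and away from siFOXA1 for most genes, as for TGM3 and PLD1. DAB1, DENND2D and LRRTM1, which have libraries with no reads, are among those not drawn.

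Genes of the type I and type III interferon response were lower under siCREB1 than under siFOXA1. Cells that sense double-stranded RNA through the RIG-I and MDA5 helicases secrete interferon beta and interferon lambda. These signal through JAK kinases to a complex of STAT proteins and IRF9, which binds interferon-stimulated response elements (ISRE) in the promoters of antiviral genes. Of 39 interferon-stimulated genes tested, 34 (87.2%) were called lower and 1 higher, beside 22.5% lower and 20.6% higher among all tested genes, and the list's median was -1.95 beside -0.01.

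The ligands themselves were seen only at low counts. IFNB1, which encodes interferon beta, had no read in either siCREB1 library, 0.506 and 0.803 CPM in the siFOXA1 libraries and no read in the siControl libraries. With 33 reads in the siFOXA1 group it was at least 12-fold lower under siCREB1. IL29, an interferon lambda, had 0.184 and 0.073 CPM under siCREB1, 3.37 and 3.17 CPM under siFOXA1 and 0.108 and 0.064 CPM under siControl (-4.62 ± 0.40 SE; edgeR adjusted p = 6.60e-07). It has near-identical family members, so its reads may be shared with them. Both ligands passed the filter on low counts only through siFOXA1 libraries, so only a lower call was open to them.

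Among 18 sensors and interferon regulatory factors, 12 were called lower and 2 higher, with a median of -0.58. The 2 became 0 without either siCREB1 library or without the first siFOXA1 library, and 1 without the second siFOXA1 library or with DESeq2. DDX58, which encodes RIG-I, had 31.7 and 29.6 CPM under siCREB1, 103 and 108 CPM under siFOXA1 and 21.2 and 23.1 CPM under siControl (-1.78 ± 0.12 SE; edgeR adjusted p = 4.97e-08). IFIH1, which encodes MDA5, had 12.7 and 11.8 CPM under siCREB1, 42.1 and 40.6 CPM under siFOXA1 and 8.05 and 5.57 CPM under siControl (-1.76 ± 0.12 SE; edgeR adjusted p = 9.33e-08). DHX58, a regulator of both helicases, differed by -2.52 ± 0.26. ADAR, which edits double-stranded RNA, had 602 and 593 CPM under siCREB1 and 613 and 666 CPM under siFOXA1 and was not called. MAVS, the adaptor of the helicases, was not called either (0.08 ± 0.07 SE).

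Of 19 genes for interferons, their receptors, JAKs, STATs and their inhibitors, 6 were called lower, the ligands IFNB1 and IL29 among them, and 1 higher. Together 36.8% were called, beside 43% of all tested genes. STAT2 had 133 and 123 CPM under siCREB1 and 121 and 123 CPM under siFOXA1, groups that overlapped, and was not called (0.07 ± 0.08 SE). The single gene higher was JAK2, with 38.5 and 37 CPM under siCREB1, 21 and 22.2 CPM under siFOXA1 and 51.4 and 42.5 CPM under siControl (0.81 ± 0.10 SE; edgeR adjusted p = 1.17e-05).

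The 250 bases before the start of 32 of the 39 interferon-stimulated genes were found in the RefSeq promoter table (build GRCh38.p14). The ISRE letters GAAANNGAAA, on either strand, occurred in 20 of them (62.5%), beside 839 of all 27305 promoters in the table (3.07%). Those promoters are not limited to the tested genes. The list holds genes already known to respond to interferon, so this share describes the list and is no result of the contrast. Stretches of 100 bases from 4 called members are shown because they place the match in its promoter. They are the called members with the largest differences that hold it, chosen after values and matches were seen. Each is written 5′ to 3′ on the gene's strand, with capitals marking the match, which appears as TTTCNNTTTC where it lies on the other strand. In BST2 a pair of matches overlap. The stretches lie at chr19:17405701-17405800 (minus strand, BST2), chr10:89327829-89327928 (plus, IFIT3), chr14:94110595-94110694 (plus, IFI27) and chr1:78620329-78620428 (plus, IFI44L).
BST2: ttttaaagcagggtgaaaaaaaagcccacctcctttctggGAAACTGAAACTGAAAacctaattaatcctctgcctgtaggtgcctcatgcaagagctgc
IFIT3: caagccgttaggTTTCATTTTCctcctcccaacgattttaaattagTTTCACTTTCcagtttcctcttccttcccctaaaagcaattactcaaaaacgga
IFI27: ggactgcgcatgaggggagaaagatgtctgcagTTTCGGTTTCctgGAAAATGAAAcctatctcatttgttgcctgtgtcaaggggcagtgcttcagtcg
IFI44L: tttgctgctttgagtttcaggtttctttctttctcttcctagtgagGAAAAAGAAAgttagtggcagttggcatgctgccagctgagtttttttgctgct

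BST2, the tetherin that holds budding virions at the cell surface, had 3.57 and 3.17 CPM under siCREB1, 33.6 and 33.9 CPM under siFOXA1 and 0.903 and 0.641 CPM under siControl (-3.32 ± 0.23 SE; edgeR adjusted p = 7.63e-08). IFIT3, which helps IFIT proteins to bind foreign RNA, had 21.5 and 16.1 CPM under siCREB1, 191 and 183 CPM under siFOXA1 and 3.36 and 3.08 CPM under siControl (-3.31 ± 0.36 SE; edgeR adjusted p = 5.79e-06). IFI27 had 4.64 and 3.83 CPM under siCREB1, 39.4 and 40.3 CPM under siFOXA1 and 1.08 and 0.320 CPM under siControl. IFI44L differed by -2.96 ± 0.22 (SE). In all 4 genes the siCREB1 libraries lay between siControl, which was lowest, and siFOXA1.

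MX2, a GTPase that restricts retroviruses, showed the largest difference of the list, with 0.221 and 0.073 CPM under siCREB1, 3.33 and 2.79 CPM under siFOXA1 and 0.144 and 0 CPM under siControl (-4.33 ± 0.47 SE; edgeR adjusted p = 4.79e-06). IFIT2, an RNA-binding antiviral protein, had 29.5 and 25.2 CPM under siCREB1, 314 and 296 CPM under siFOXA1 and 7.26 and 6.92 CPM under siControl (-3.48 ± 0.32 SE; edgeR adjusted p = 1.19e-06). SAMD9L, an antiviral effector, differed by -3.80 ± 0.36 (SE). MX2 and SAMD9L passed the filter on low counts only through siFOXA1 libraries, so only a lower call was open to them. MX1, the paralog of MX2, singled out after its values were seen, was not called, with 7.59 and 7.0 CPM under siCREB1 and 8.47 and 7.80 CPM under siFOXA1 (-0.16 ± 0.12 SE). DTX3L and TRIM21, a pair of ubiquitin ligases, were not called either. Over the whole list, the median level was 14.1 and 11.4 CPM in siCREB1 libraries, 42.7 and 44.2 CPM in siFOXA1 libraries and 4.88 and 4.36 CPM in siControl libraries.

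Chemokine and antigen presentation genes were lower too. Chemokines that draw T cells showed some of the widest gaps. CXCL11 had 0.810 and 0.401 CPM under siCREB1, 23.8 and 21.8 CPM under siFOXA1 and 0.108 and 0.192 CPM under siControl (-5.22 ± 0.29 SE; edgeR adjusted p = 1.14e-08). CXCL10 differed by -5.03 ± 0.31 and CCL5 by -4.75 ± 0.29 (SE). Of 16 chemokine and NF-kappaB pathway genes, 10 were called lower and 1 higher, with a median of -0.77, while NFKB1 was not called (-0.11 ± 0.07 SE). Of 17 genes of MHC class I presentation, 13 were called lower and 2 higher, with a median of -0.69. The 2 became 1 without the second siCREB1 library or without either siFOXA1 library. PSMB9, an immunoproteasome subunit, had 1.29 and 0.949 CPM under siCREB1, 6.58 and 6.58 CPM under siFOXA1 and 0.253 and 0.577 CPM under siControl (-2.55 ± 0.30 SE; edgeR adjusted p = 1.27e-05). NLRC5, the transactivator of MHC class I genes, differed by -1.26 ± 0.15 (SE). Reads of the HLA genes can be shared between near-identical copies.

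Genes of mitosis were lower under siCREB1 than under siFOXA1 almost without exception. These genes are transcribed late in the cell cycle by a complex of B-Myb, FOXM1 and MuvB that binds cell cycle genes homology region (CHR) elements. The CCAAT box, a separate element, was counted as well. Of 44 mitosis genes tested, 42 (95.5%) were called lower and 0 higher, with a median of -2.11. The genes not called were BUB3 (-0.15 ± 0.08 SE), a checkpoint protein, and INCENP (-0.10 ± 0.10 SE), of the chromosomal passenger complex. The list's median level was 1.8 and 2.52 CPM in siCREB1 libraries, 9.59 and 10.1 CPM in siFOXA1 libraries and 16.4 and 16.2 CPM in siControl libraries, an order of siCREB1, siFOXA1 and siControl from low to high.

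Promoters of 38 of the 44 mitosis genes were in the table. The CHR letters TTTGAA, on either strand, occurred in the 250 bases before the start of 22 of them (57.9%), beside 13.6% of all 27305 promoters. The letters CCAAT, on either strand, occurred in 29 of them (76.3%), beside 33% of all promoters. The full cyclic AMP response element TGACGTCA, which is its own reverse complement, occurred in 3 of them (7.89%), beside 1.77%. These shares describe a list of genes already known for mitosis and are no result of the contrast. Stretches of 100 bases from 3 members, picked in the same way for holding both elements, lie at chr14:55191634-55191733 (minus strand, DLGAP5), chr17:40418045-40418144 (minus, TOP2A) and chr1:43358848-43358947 (plus, CDC20) of GRCh38.p14. Capitals mark CCAAT or its complement ATTGG, and TTTGAA or its complement TTCAAA.
DLGAP5: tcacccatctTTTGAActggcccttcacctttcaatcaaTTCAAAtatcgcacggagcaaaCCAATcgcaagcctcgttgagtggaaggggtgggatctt
TOP2A: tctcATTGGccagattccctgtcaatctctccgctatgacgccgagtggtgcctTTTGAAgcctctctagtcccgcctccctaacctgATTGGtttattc
CDC20: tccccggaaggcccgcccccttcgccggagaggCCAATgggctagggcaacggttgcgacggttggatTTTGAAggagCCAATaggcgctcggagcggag

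DLGAP5, a spindle microtubule protein, had 0.626 and 1.46 CPM under siCREB1, 10.8 and 9.14 CPM under siFOXA1 and 17.7 and 18.8 CPM under siControl (-3.24 ± 0.28 SE; edgeR adjusted p = 5.06e-07). TOP2A, the topoisomerase that untangles sister chromatids, had 2.58 and 3.98 CPM under siCREB1, 29 and 29.5 CPM under siFOXA1 and 49.4 and 47.5 CPM under siControl (-3.16 ± 0.19 SE; edgeR adjusted p = 2.37e-08). CDC20, the activator of the anaphase-promoting complex, had 2.17 and 4.12 CPM under siCREB1, 19.3 and 19.3 CPM under siFOXA1 and 31.3 and 27.6 CPM under siControl. IQGAP3, a scaffold of dividing cells, differed by -3.11 ± 0.18 (SE). In each of the 4 genes the groups did not overlap, and siFOXA1 lay between siCREB1 and siControl.

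Regulators of the cell cycle were lower too. Of 20 cell cycle transcription factors, 14 were called lower and 2 higher, with a median of -0.51. E2F7, an atypical E2F that represses its own family's targets, had 0.368 and 0.365 CPM under siCREB1, 2.57 and 3.17 CPM under siFOXA1 and 2.13 and 2.31 CPM under siControl (-2.96 ± 0.28 SE; edgeR adjusted p = 1.61e-06). MYBL2, which encodes B-Myb, had 1.69 and 2.48 CPM under siCREB1, 11.7 and 13 CPM under siFOXA1 and 23.1 and 19.5 CPM under siControl (-2.56 ± 0.22 SE; edgeR adjusted p = 4.74e-07). MYBL1, its paralog, differed by -1.75 ± 0.32 (SE). Of 17 G1 cyclins, kinases and inhibitors, 10 were called lower and 2 higher. The lower ones included both a driver and a brake of the cycle. CCND1, cyclin D1, had 113 and 120 CPM under siCREB1, 299 and 314 CPM under siFOXA1 and 316 and 298 CPM under siControl (-1.40 ± 0.09 SE; edgeR adjusted p = 2.47e-08). CDKN1A, the inhibitor p21, had 171 and 184 CPM under siCREB1, 425 and 403 CPM under siFOXA1 and 133 and 122 CPM under siControl (-1.22 ± 0.25 SE; edgeR adjusted p = 0.00135).

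DNA replication and recombination genes differed by less in the median but over a wide range. Of 44 replication genes, 28 (63.6%) were called lower and 1 higher, with a median of -0.38. The 1 became 0 without either siCREB1 library, without the second siFOXA1 library and with DESeq2, among other settings. MCM10, an origin firing factor, had 0.221 and 0.547 CPM under siCREB1, 3.25 and 4.32 CPM under siFOXA1 and 5.71 and 5.51 CPM under siControl (-3.29 ± 0.30 SE; edgeR adjusted p = 1.02e-06). RRM2, the regulated subunit of ribonucleotide reductase, had 1.66 and 2.55 CPM under siCREB1, 16 and 18.2 CPM under siFOXA1 and 17 and 17 CPM under siControl (-3.02 ± 0.23 SE; edgeR adjusted p = 1.86e-07). The DNA polymerase delta subunit POLD2 and the single-strand binding protein RPA1 were not called (0.15 ± 0.08 and -0.07 ± 0.06 SE). Of 32 recombination and checkpoint genes, 21 were called lower and 0 higher, with a median of -0.45. That count fell to 12 without the first siCREB1 library and to 13 without the second siFOXA1 library. EXO1, a resection nuclease, differed by -2.36 ± 0.33 (SE). RAD54B, a recombination motor protein, had 6.11 and 4.82 CPM under siCREB1, 22.6 and 22.3 CPM under siFOXA1 and 5.81 and 6.66 CPM under siControl, so that siFOXA1 alone stood apart.

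**Figure D3:**
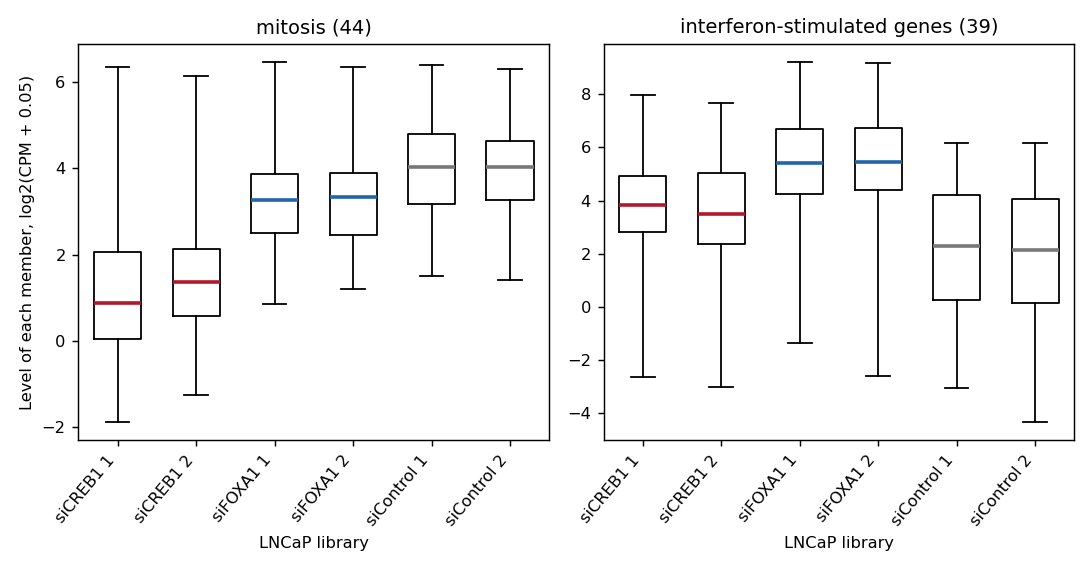
Level of each member, log2(CPM + 0.05), in every LNCaP library for the mitosis list (left, 44 genes) and the interferon-stimulated list (right, 39 genes). Boxes span the quartiles, coloured lines are medians and whiskers reach the lowest and highest member. The mitosis medians are lowest in the siCREB1 libraries (1.8 and 2.52 CPM) and highest in siControl (16.4 and 16.2 CPM), and the interferon-stimulated medians are highest in siFOXA1 (42.7 and 44.2 CPM).

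In abl the same pair of knockdowns placed the mitosis genes the other way round. Over all genes, 6368 (41%) were called in abl, 3107 (20%) higher and 3261 (21%) lower under siCREB1 than under siFOXA1. Of the 44 mitosis genes, 43 were called higher there and 0 lower, with a median of 1.21. The difference between lines, LNCaP minus abl, was tested in the same fit and was called for 2181 genes (14%), 1020 (6.56%) positive and 1161 (7.47%) negative. It was negative and called for 43 of the 44 mitosis genes, with a median of -3.42. The list's median level in abl was 17.1 and 12.8 CPM in siCREB1 libraries, 6.25 and 7.39 CPM in siFOXA1 libraries and 34.6 and 32.3 CPM in siControl libraries, so that in that line siFOXA1 and not siCREB1 lay lowest.

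DLGAP5 gave the widest line difference of the mitosis list, -4.96 ± 0.35, from -3.24 in LNCaP and 1.72 in abl (SE; edgeR adjusted p = 7.61e-07). TOP2A gave -4.35 ± 0.26 (SE; edgeR adjusted p = 3.18e-07). Of the 44 replication genes, 36 were called higher in abl and 1 lower, and the line difference was negative and called for 37. Of the 32 recombination and checkpoint genes, 20 were called higher in abl and 3 lower, and 22 had a negative line difference. The total of 2181 fell to 1437 without the second LNCaP siFOXA1 library and to 1397 without the first abl siCREB1 library, which is a fall of over 1.5 times in each case.

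The interferon-stimulated genes were mostly lower in abl too. There 25 of 39 were called lower and 3 higher, with a median of -1.10. The line difference was negative and called for 13 of them and positive and called for 4, and the 4 became 2 without the first LNCaP siCREB1 library or without either abl siCREB1 library, and 7 without the second abl siFOXA1 library. For OASL, an oligoadenylate synthetase-like protein singled out after its values were seen, the difference was -3.43 ± 0.39 in LNCaP and -3.61 ± 0.46 in abl (line difference 0.18 ± 0.61 SE; edgeR adjusted p = 0.89). IFI27 differed by -3.23 in LNCaP and by -5.46 in abl (line difference 2.23 ± 0.58 SE; edgeR adjusted p = 0.0192). The list's median level in abl was 8.25 and 7.05 CPM under siCREB1, 26.7 and 24.1 CPM under siFOXA1 and 7.08 and 6.35 CPM under siControl.

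**Figure D4:**
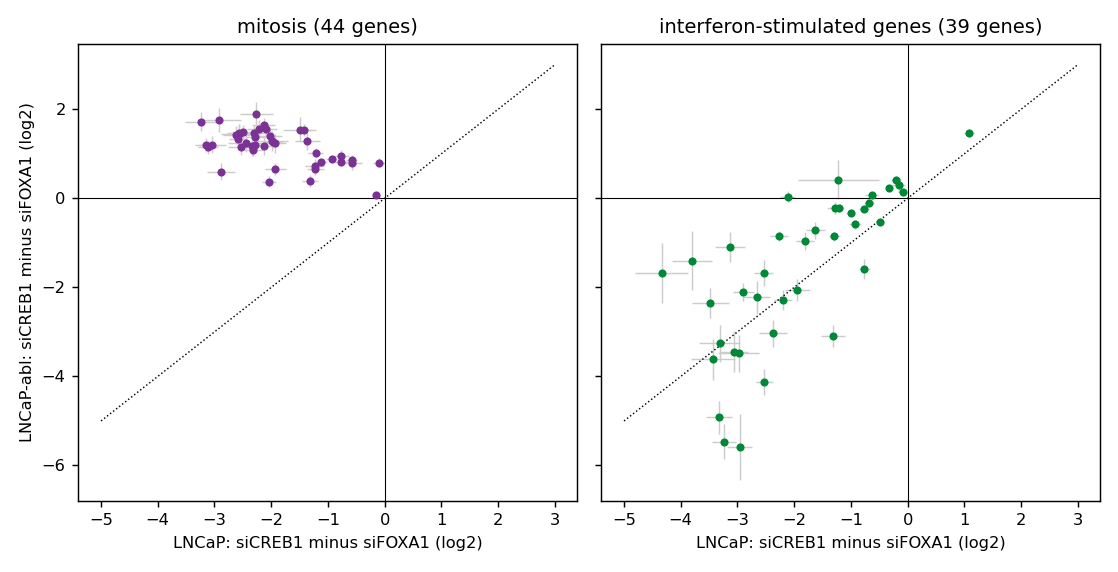
Log2 fold change (siCREB1 minus siFOXA1) of each gene in LNCaP (horizontal) and in abl (vertical), with SE bars, for the mitosis list (left) and the interferon-stimulated list (right); the dotted line marks equal values. The mitosis genes lie left of and above zero, with medians of -2.11 in LNCaP and 1.21 in abl, and most interferon-stimulated genes lie below zero in both lines, with medians of -1.95 and -1.10.

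Over all genes the lines shared many calls. A gene was called higher in both lines in 1846 cases (11.9% of those tested) and lower in both in 1943 (12.5%). It was higher in LNCaP and lower in abl in 90 cases (0.579%) and lower in LNCaP and higher in abl in 257 (1.65%). Some of the largest LNCaP differences were weaker or turned in abl. THBS1 was 1.71 ± 0.37 in abl, a line difference of -5.91 ± 0.38 (SE; edgeR adjusted p = 5.57e-07). In abl it had 3.56 and 2.755 CPM under siCREB1, 1.33 and 0.605 CPM under siFOXA1 and 24.9 and 25.9 CPM under siControl. Both knockdowns thus lay below siControl in that line. DAPK1 kept its direction in abl at -3.70 ± 0.12, with a line difference of -5.62 ± 0.24 (SE; edgeR adjusted p = 1.66e-08). ABP1, which encodes the diamine oxidase that degrades histamine, had 42 and 43.7 CPM under siCREB1 and 100 and 101 CPM under siFOXA1 in LNCaP, and its difference was -1.23 ± 0.10 there and -5.23 ± 0.12 in abl (SE).

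Genes of prostate identity split between the knockdowns. Androgens drive secretory proteins of luminal cells, many at sites that FOXA1 opens, and KRT8, KRT18 and HOXB13, which mark luminal cells, were detected in every library. Of 42 androgen response genes, 17 (40.5%) were called higher and 15 (35.7%) lower under siCREB1, beside 20.6% and 22.5% of all tested genes. The list's median was 0.12. SPDEF, an ETS factor of secretory epithelium, had 120 and 112 CPM under siCREB1, 15.9 and 17.5 CPM under siFOXA1 and 88.9 and 73.7 CPM under siControl (2.79 ± 0.13 SE; edgeR adjusted p = 1.95e-09). INPP4B, a phosphoinositide phosphatase, differed by 2.56 ± 0.30 (SE). HOXB13 had 738 and 769 CPM under siCREB1 and 754 and 778 CPM under siFOXA1, groups that overlapped (-0.02 ± 0.08 SE).

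Secretory products went in both directions. ACPP, prostatic acid phosphatase, had 205 and 212 CPM under siCREB1, 22.6 and 26.6 CPM under siFOXA1 and 500 and 514 CPM under siControl (3.08 ± 0.15 SE; edgeR adjusted p = 2.36e-09). KLK2, a kallikrein protease, had 0.663 and 1.39 CPM under siCREB1, 5.31 and 6.27 CPM under siFOXA1 and 1.62 and 1.02 CPM under siControl (-2.49 ± 0.26 SE; edgeR adjusted p = 3.80e-06). PLA2G2A, a secreted phospholipase, had 107 and 117 CPM under siCREB1, 1263 and 1122 CPM under siFOXA1 and 126 and 125 CPM under siControl (-3.42 ± 0.08 SE; edgeR adjusted p = 4.81e-12). FOLH1, the prostate-specific membrane antigen, had 1271 and 1351 CPM under siCREB1, 1285 and 1335 CPM under siFOXA1 and 1449 and 1416 CPM under siControl, and its groups overlapped (0.00 ± 0.06 SE). Of the 21 luminal identity genes, 6 (28.6%) were called higher and 10 (47.6%) lower, beside 20.6% and 22.5% of all tested genes. TRPM8, a cold-sensing ion channel, had 1.14 and 1.02 CPM under siCREB1, 9.78 and 9.56 CPM under siFOXA1 and 1.16 and 1.22 CPM under siControl (-3.15 ± 0.19 SE; edgeR adjusted p = 2.47e-08).

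Markers of basal epithelium that were called were lower under siCREB1. Of 12 tested genes of basal keratins and hemidesmosomes, 9 (75.0%) were called lower and 0 higher, with a median of -1.05. KRT17, KRT14 and COL17A1 passed the filter on low counts only through siFOXA1 libraries. For them only a lower call was open, so the tally and the median lean that way. KRT17 had no read under siCREB1, 2.44 and 1.91 CPM under siFOXA1 and 0.036 and 0 CPM under siControl. With 108 reads in the siFOXA1 group it was at least 39.4-fold lower under siCREB1, and at that bound it stays below the list's median. COL17A1, the hemidesmosomal collagen, had 0.184 and 0.219 CPM under siCREB1, 14.2 and 10.1 CPM under siFOXA1 and 0.253 and 0.256 CPM under siControl (-5.87 ± 0.28 SE; edgeR adjusted p = 2.02e-09). KRT14 had 2 reads under siCREB1 and 44 under siFOXA1, a ratio of 24.1 with an exact 95% counting interval of 6.28 to 205. KRT14 and KRT17 are near-identical in sequence in part, so their reads can be split. The defining basal genes KRT5 and TP63 did not pass the filter on low counts. LAMA3 and ITGB4, the laminin and integrin chains of hemidesmosomes, were not called. The 12 genes summed to 151 and 158 CPM under siCREB1, 240.1 and 243 CPM under siFOXA1 and 201 and 187 CPM under siControl. Little of that sum came from KRT17, KRT14 and COL17A1, and LAMA3 alone had 38.4 and 38.9 CPM under siFOXA1. The sum is therefore no measure of basal keratins.

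Markers of other cell types were read as summed levels. The 4 tested of 6 fibroblast markers summed to 82.3 and 75.6 CPM under siCREB1, 99.0 and 84.2 CPM under siFOXA1 and 59.7 and 66.9 CPM under siControl. Within them COL1A1 was called lower (-0.38 ± 0.11 SE), a call lost without either siCREB1 library or without the first siFOXA1 library, and LUM, a proteoglycan, had 11.4 and 6.09 CPM under siCREB1 and 0.843 and 0.918 CPM under siFOXA1. The 5 tested of 7 blood and endothelial markers summed to 12.3 and 16.6 CPM under siCREB1, 3.25 and 2.83 CPM under siFOXA1 and 35.2 and 28.6 CPM under siControl. Nearly all of that sum was VWF, at 11.9 and 15.8 CPM under siCREB1, 2.61 and 2.37 CPM under siFOXA1 and 30.7 and 27.7 CPM under siControl, while PTPRC, which marks all leukocytes, had 0.037 and 0 CPM under siCREB1 and no read under siFOXA1. The 12 tested genes of the neuroendocrine list summed to 259 and 259.6 CPM under siCREB1, 202 and 205 CPM under siFOXA1 and 322 and 295 CPM under siControl. That sum includes REST, a repressor of neuronal genes, so it is not a level of markers alone. REST had 78.4 and 68.8 CPM under siCREB1, 76.6 and 76.9 CPM under siFOXA1 and 118 and 112 CPM under siControl. Whether these levels have a part in the other differences was not tested.

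Of 7 UGT2B genes tested, 6 were called higher under siCREB1 and 0 lower, a tally made after values were seen, and UGT2B7 was not called (1.14 ± 0.89 SE). The UGT2B enzymes attach glucuronic acid to androgens in prostate cells, which inactivates them, and their genes are near-identical copies, so their counts may be split unevenly. Of 19 steroid-metabolising enzymes, 7 (36.8%) were called higher and 5 (26.3%) lower, beside 20.6% and 22.5% of all tested genes. Of the 7, 5 were UGT2B genes. UGT2B28 had 0.736 and 0.839 CPM under siCREB1, 0 and 0.077 CPM under siFOXA1 and 1.44 and 1.92 CPM under siControl, a ratio of 19.6 with an exact 95% counting interval of 5.12 to 167. UGT2B10 had 1.92 and 1.24 CPM under siCREB1, 0.084 and 0.115 CPM under siFOXA1 and 4.08 and 3.08 CPM under siControl (3.91 ± 0.79 SE; edgeR adjusted p = 0.0011). UGT2B17 varied within its group, with 4.20 and 0.511 CPM under siCREB1, against 0.084 and 0.115 CPM under siFOXA1 (4.48 ± 1.00 SE; edgeR adjusted p = 0.00241). HSD3B1, which starts the conversion of adrenal precursors to androgens and was singled out after its values were seen, differed by -2.52.

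The genes of a pair of other steroid receptors were lower under siCREB1. NR3C1, the glucocorticoid receptor, had 1.51 and 1.31 CPM under siCREB1, 8.69 and 6.96 CPM under siFOXA1 and 2.06 and 1.6 CPM under siControl (-2.46 ± 0.18 SE; edgeR adjusted p = 1.59e-07). PGR, the progesterone receptor, had 1.66 and 2.04 CPM under siCREB1, 4.81 and 7.34 CPM under siFOXA1 and 2.75 and 2.31 CPM under siControl (-1.72 ± 0.24 SE; edgeR adjusted p = 4.89e-05). SGK1, a kinase induced by glucocorticoids and by cyclic AMP, had 2.69 and 2.15 CPM under siCREB1, 26.6 and 20.8 CPM under siFOXA1 and 1.44 and 1.28 CPM under siControl (-3.29 ± 0.24 SE; edgeR adjusted p = 1.14e-07). The list of the glucocorticoid receptor and its targets holds these genes. Of its 15 tested members, 6 (40%) were called lower and 2 (13.3%) higher, beside 22.5% and 20.6% of all tested genes. KLF9, a target of the glucocorticoid receptor, was not called (0.01 ± 0.08 SE).

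Genes known as targets of CREB did not move as one group. Of 33 tested, 13 (39.4%) were called lower and 8 (24.2%) higher, with a median of -0.19, and the 8 became 5 without the second siCREB1 library or without the first siFOXA1 library. In the 250 bases before the start of 27 of them, the element TGACGTCA occurred in 3 (11.1%), beside 1.77% of all promoters, and TGACG, which it contains, in 16 (59.3%), beside 21.7%. Since the list holds known CREB targets, these shares describe the list and are no result of the contrast. FOS, an immediate early gene, had 0.663 and 0.547 CPM under siCREB1, 2.70 and 3.90 CPM under siFOXA1 and 1.16 and 1.02 CPM under siControl (-2.44 ± 0.29 SE; edgeR adjusted p = 1.30e-05). PDE4B, which degrades cyclic AMP, differed by -2.44 ± 0.66, a call lost without the second siCREB1 library (-1.79) or without the first siFOXA1 library (-2.0). JUN and CITED2 were not called. PKIB, an inhibitor of protein kinase A, had 124 and 112 CPM under siCREB1, 39.2 and 45.6 CPM under siFOXA1 and 143 and 155 CPM under siControl (1.48 ± 0.09 SE; edgeR adjusted p = 1.88e-08). Among 22 CREB and ATF family members and co-activators, 7 (31.8%) were called higher and 6 (27.3%) lower. The shares over all tested genes were 20.6% and 22.5%. CREB3L2, a membrane-bound relative, differed by 0.72 ± 0.09, ATF6, a sensor of misfolded protein, by -0.63 ± 0.07 (SE), and the co-activators CREBBP and EP300 were not called.

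Lipid synthesis genes were mostly higher under siCREB1. Of 25 cholesterol synthesis genes, 15 (60.0%) were called higher and 2 lower, with a median of 0.33. The 2 became 1 without the first siCREB1 library, without any single siFOXA1 or abl library and with DESeq2, among other settings. SC4MOL, a sterol demethylase, had 138 and 137 CPM under siCREB1, 60.8 and 65.8 CPM under siFOXA1 and 83.3 and 84.1 CPM under siControl (1.12 ± 0.06 SE; edgeR adjusted p = 8.24e-09). CYP51A1, an earlier demethylase of the pathway, went the other way, with 141 and 138 CPM under siCREB1, 238 and 249 CPM under siFOXA1 and 127 and 132 CPM under siControl. In abl 1 of the 25 was called higher and 9 lower, and the line difference was positive and called for 11.

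Of 19 fatty acid synthesis genes, 10 were called higher and 5 lower, with a median of 0.38. The 5 became 3 without either siCREB1 library and 2 without the first siFOXA1 library. FADS2, a desaturase, had 871 and 900 CPM under siCREB1, 298 and 346 CPM under siFOXA1 and 897 and 865 CPM under siControl (1.46 ± 0.10 SE; edgeR adjusted p = 6.78e-08). ACSL1, which activates long-chain fatty acids, had 725 and 768 CPM under siCREB1, 269 and 302 CPM under siFOXA1 and 565 and 635 CPM under siControl (1.39 ± 0.08 SE; edgeR adjusted p = 2.18e-08). SREBF1, the regulator of the pathway, overlapped between the groups, with 770 and 840 CPM under siCREB1 and 777 and 859 CPM under siFOXA1. STEAP2, a metalloreductase of prostate epithelium, had 1308 and 1241 CPM under siCREB1, 521 and 639 CPM under siFOXA1 and 1752 and 1686 CPM under siControl (1.14 ± 0.09 SE; edgeR adjusted p = 1.62e-07).

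Genes for the ribosome and the proteasome leaned in opposite directions by small steps. Of 40 cytosolic ribosomal protein genes, 34 (85.0%) were called higher and 0 lower, with a median of 0.34. Without the second siCREB1 library 22 were called higher and 1 lower. RPLP1, a protein of the ribosomal stalk, stood apart, with 1298 and 1331 CPM under siCREB1, 395 and 422 CPM under siFOXA1 and 1213 and 1108 CPM under siControl (1.69 ± 0.07 SE; edgeR adjusted p = 1.15e-09). The next largest, RPL14, differed by 0.57 ± 0.08 (SE). Ribosomal protein genes have many processed copies in the genome that can share their reads. Of 31 proteasome subunits, 15 (48.4%) were called lower and 1 (3.23%) higher, beside 22.5% and 20.6% of all tested genes. Their median was -0.16, and PSMC1 led the lower ones (-0.55 ± 0.06 SE). Of 38 oxidative phosphorylation subunits, 15 were called lower and 1 higher, with a median of -0.12. Together 42.1% were called, near the 43% of all tested genes, and the 15 became 9 without the first siFOXA1 library. ATP5B, the catalytic subunit of ATP synthase, had 900 and 1021 CPM under siCREB1, 1559 and 1592 CPM under siFOXA1 and 1317 and 1290 CPM under siControl (-0.71 ± 0.07 SE; edgeR adjusted p = 1.59e-06).

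Genes induced by p53 were lower under siCREB1 than under siFOXA1. Of 24 tested, 18 (75.0%) were called lower and 2 (8.33%) higher, beside 22.5% and 20.6% of all tested genes. The list's median was -0.66. Against siControl, 5 were called higher and 7 lower under siCREB1, with a median of -0.02. Under siFOXA1, 19 were called higher and 3 lower against siControl, with a median of 0.67. Besides CDKN1A, ZMAT3, an RNA-binding protein, had 37.2 and 34.3 CPM under siCREB1, 82.2 and 82.3 CPM under siFOXA1 and 60.4 and 54.6 CPM under siControl (-1.20 ± 0.12 SE; edgeR adjusted p = 2.65e-06). PLK2, a centriole kinase, went the other way, with 99.0 and 108 CPM under siCREB1, 44.6 and 43.5 CPM under siFOXA1 and 141 and 156 CPM under siControl (1.23 ± 0.09 SE; edgeR adjusted p = 1.86e-07). Of 16 BCL2 family genes, 6 (37.5%) were called lower and 4 (25%) higher, beside 22.5% and 20.6% of all tested genes. The 4 became 2 without the second siCREB1 library or without either siFOXA1 library. The p53-induced killers BBC3 and PMAIP1 were among the lower ones (-0.95 ± 0.17 and -0.86 ± 0.15 SE).

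Lysosomal and antioxidant genes that were called were mostly lower under siCREB1. Of 30 autophagy and lysosome genes, 11 (36.7%) were called lower and 0 higher, with a median of -0.15. The share called in either direction lay below the 43% of all tested genes. The 11 became 7 without the first siCREB1 library or without the first siFOXA1 library. CTSL1, a lysosomal protease, had 79.1 and 75.8 CPM under siCREB1, 497 and 433 CPM under siFOXA1 and 54.6 and 54.1 CPM under siControl (-2.59 ± 0.07 SE; edgeR adjusted p = 2.81e-11). Of 24 glutathione and cystine genes, 13 (54.2%) were called lower and 1 higher, beside 22.5% lower and 20.6% higher among all tested genes. The 13 became 7 without the second siCREB1 library. NFE2L2, the regulator of antioxidant genes, had 43.2 and 41.9 CPM under siCREB1, 80.4 and 78.9 CPM under siFOXA1 and 61.0 and 61.6 CPM under siControl (-0.91 ± 0.06 SE; edgeR adjusted p = 8.32e-08).

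Stress and amino acid genes gave no single direction. Of 36 genes of the integrated stress and protein folding responses, 6 were called higher and 9 lower in LNCaP, near the shares over all genes, against 18 higher and 3 lower in abl. The 6 became 3 without the first LNCaP siCREB1 library. ERO1L, an endoplasmic oxidase, had 12.4 and 11.7 CPM under siCREB1, 55.5 and 52.2 CPM under siFOXA1 and 18.7 and 19 CPM under siControl (-2.16 ± 0.08 SE; edgeR adjusted p = 1.59e-10). EIF2AK3, the kinase PERK, had 71.7 and 69.2 CPM under siCREB1, 33.6 and 37.2 CPM under siFOXA1 and 53.7 and 47.2 CPM under siControl (0.99 ± 0.09 SE; edgeR adjusted p = 1.03e-06). The chaperones HSPA5 and HSP90B1 were not called. Of 17 amino acid transporters, 8 (47.1%) were called higher and 3 (17.6%) lower, beside 20.6% and 22.5% of all tested genes. SLC7A8 had 121 and 120 CPM under siCREB1, 337 and 306 CPM under siFOXA1 and 107 and 114 CPM under siControl (-1.42 ± 0.07 SE; edgeR adjusted p = 2.02e-09). PSAT1, of serine synthesis, had 222 and 219 CPM under siCREB1, 96.8 and 106 CPM under siFOXA1 and 173 and 172 CPM under siControl (1.12 ± 0.06 SE; edgeR adjusted p = 1.17e-08).

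TGF-beta genes were called in both directions. Of 13 TGF-beta genes, 6 (46.2%) were called lower and 3 (23.1%) higher, beside 22.5% and 20.6% of all tested genes. The 6 became 3 without the first siFOXA1 library. TGFBR1, the type I receptor, had 12.2 and 10.4 CPM under siCREB1, 34.3 and 32.5 CPM under siFOXA1 and 35 and 37.5 CPM under siControl (-1.56 ± 0.09 SE; edgeR adjusted p = 2.03e-08). INHBB, an activin subunit, had 15.2 and 13.5 CPM under siCREB1, 3.88 and 4.32 CPM under siFOXA1 and 13.4 and 9.22 CPM under siControl (1.8 ± 0.18 SE; edgeR adjusted p = 2.32e-06). SMAD2, a signal transducer, was not called (-0.10 ± 0.07 SE). Of 28 hypoxia and glycolysis genes, 10 were called lower and 3 higher, with a median of -0.04. Together 46.4% were called, near the 43% of all tested genes. PGAM1, a glycolytic mutase, led the lower ones (-1.68 ± 0.07 SE; edgeR adjusted p = 3.62e-10). PGAM1 had 109 and 121 CPM under siCREB1, 370 and 366 CPM under siFOXA1 and 331 and 327 CPM under siControl. ENO1, the next enzyme of the pathway, overlapped between the groups (0.04 ± 0.07 SE).

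**Figure D5:**
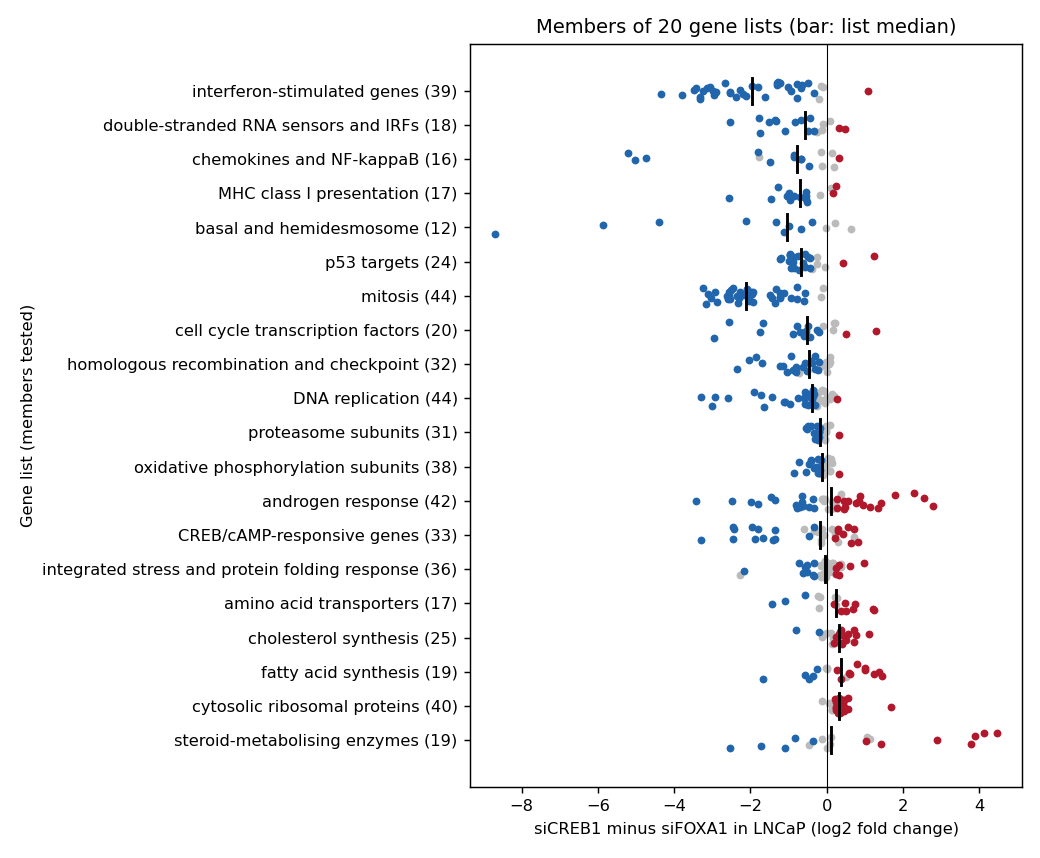
Log2 fold change (siCREB1 minus siFOXA1, LNCaP) of every tested member of 20 gene lists, with the number tested in brackets. Red points were called higher under siCREB1, blue lower and grey not called, and the bar is the list's median. The mitosis and interferon-stimulated medians (-2.11 and -1.95) lie farthest left, and the fatty acid, ribosomal and cholesterol medians (0.38, 0.34 and 0.33) lie right of zero.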

How the data were processed

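Only the deposited count tables were used. The submitters' processing notes name HTSeq 0.5.3p9, TopHat2 2.0.8, CASAVA 1.8 and Bowtie2 2.1.0, with the build hg19. Which annotation was counted, and on which strand, is not given in the sources used here. All deposited values used are raw counts of reads per gene, made by the authors, and the TruSeq kit named in the labels keeps no strand. The 8 control columns that recur in several tables were identical and were used once. Lines of unassigned reads were left out: 54.85% to 58.25% of reads fell on no feature and 0.774% to 0.924% were ambiguous. The total of assigned reads ran over the 12 libraries between 9092597 and 37314039. Libraries of the same group differed by more than sampling noise (chi-square per degree of freedom of 4.23 to 9.84).

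Counts were tested in R 4.3.3 with edgeR 4.0.16 (TMM factors, filterByExpr, glmQLFit and glmQLFTest) in one model of 6 groups with 6 residual degrees of freedom, and p-values were adjusted by Benjamini-Hochberg over 15550 genes. The code was also run on simulated counts with few genes changed, unlike here, so that run does not show how the test behaves on these data. SE is the absolute log2 change divided by the square root of F. DESeq2 1.42.0 served as an alternative. Genes were described by 44 lists and named by a rule: the targeted genes, the 10 largest differences each way, the 5 largest line differences each way, up to 3 called members of each list and up to 2 not called. Some genes that this rule picked are not reported here. The contrast and the lists were chosen with earlier results of these data known, so the lists' counts are descriptions. Peak lists and the authors' tables of tests were not used here.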

Additional observations from a re-analysis of the deposited data

Results flagged for a closer look

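The difference between siCREB1 and siFOXA1 was not the same in both lines, by the interaction test of the edgeR fit, for 2181 genes. Among the genes with the largest differences in LNCaP or between lines, the values below are the LNCaP difference minus the abl difference on the log2 scale.

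Genes whose line difference was positive were DAB1 (4.29), ABP1 (4.0), HOXC12 (2.40), RLN1 (2.27), GSTA1 (2.27), RLN2 (2.1), LOC145837 (1.65), PTPRR (1.14) and DDC (0.77). HOXC12, a homeobox gene, had 4.34 and 5.40 CPM under siCREB1, against 3.08 and 3.14 CPM under siFOXA1 in LNCaP, while in abl the difference was -1.75 ± 0.12 (SE). GSTA1, a glutathione transferase, overlapped between the groups in LNCaP (0.04 ± 0.37 SE) and differed by -2.23 ± 0.25 (SE) in abl.

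Genes whose line difference was negative were LRRTM1 (-6.36), THBS1 (-5.91), DAPK1 (-5.62), DLGAP5 (-4.96), CCL5 (-3.04), PLD1 (-2.93), CCDC80 (-2.06), GAB3 (-1.74) and POLR3G (-1.26). For DENND2D, which had 0 reads under siCREB1 and 7 under siFOXA1 in LNCaP, the fitted value (-4.88) depends on the prior count and is no measure of size. The values of LRRTM1, with 1 read under siCREB1, and of DAB1, with 3 under siFOXA1, rest on few reads too. What sets the line differences was not tested, and passage and line cannot be told apart.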

How the results depend on the processing

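Across 17 alternative settings, the number of genes called in LNCaP ranged from 5138 to 7059 beside 6691, and was 5597 with DESeq2 and 6879 with a replicate block. With the block, which enters the number at the end of a column name as a term, 6562 genes were called in abl and 2408 for the line difference. That number is shared by the columns with no source saying that it pairs them. Over 10193 genes, deviations of the LNCaP siCREB1 and siFOXA1 libraries correlated at 0.33. Those of LNCaP siControl correlated with siCREB1 at -0.165 and with siFOXA1 at -0.141. The value was 0.379 between abl siCREB1 and abl siFOXA1 and 0.519 between the siControl groups of the lines. A single term for the number therefore does not describe all groups alike. Of the genes called in LNCaP, 75.2% to 99.8% stayed called in the same direction. The line difference moved by over 1.5 times when single libraries were left out, with 1397 to 2446 genes called, 643 to 1157 positive and 754 to 1296 negative. Without the second library of LNCaP siFOXA1 it was 1437. Called genes picked by the naming rule kept their direction in every setting run. Of 88 genes so named that were not called in LNCaP, 30 changed sign in some setting, all within 0.29 of 0 on the log2 scale. Called genes no longer called in some setting, 29 cases in all, were LRRTM1, HOXC12, STMN2, TGFBI, PDE4B, PKIA, FOXC1, KRT20, COL1A1 and, for the line difference, DENND2D. No scaling moved the median of all genes by over 0.1, which says little, since each scaling places most genes near 0. The medians of the mesenchymal, tRNA synthetase, phosphodiesterase, ID and BMP, BCL2, fibroblast and blood lists changed sign in some setting. The planned peak windows were not run, since no gene starts of the peaks' build were at hand. Depth limits what can be said of genes at a few reads, such as IFNB1 and DENND2D.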
